A study of Mus musculus with 2 samples.

Results

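The cells described here are the enterocyte-like cells of mouse small intestinal organoids grown in Matrigel. They were chosen from the Matrigel cells of a single-cell table as those in which Rbp2 and Sis together reached 100 counts per 1000000 of the cell's own counts (CPM), after cells with more than 30% mitochondrial counts were removed. The rule gave 120 cells, or 7.50% (exact 95% binomial interval 6.26 to 8.91) of the 1599 Matrigel cells kept, out of 2090 cells in the table. The other 1479 kept Matrigel cells served for comparison, and where stated only the 225 of them in which Olfm4, a crypt stem cell gene, is listed at 0. Since Rbp2 and Sis chose the cells, the levels of both are given as a description only.

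Epithelium of the proximal small intestine of C57BL/6 wild-type mice was grown from isolated crypts and analysed on day 4. The enterocyte-like cells and all other Matrigel cells shared 1 culture, in a basement membrane extract under medium with EGF at 50 ng/mL, Noggin at 100 ng/mL and R-spondin1 at 400 ng/mL. A second culture, in type I collagen, received the same factors together with nicotinamide at 10 mM, Wnt3a at 100 ng/mL and bovine serum albumin at 1%. Cells of both cultures were tagged through an EpCAM antibody with a hashtag per culture, pooled and sequenced as 1 cDNA library and 1 hashtag library, with 1 suspension per culture. Crypt-derived organoids hold epithelium alone, without the villi, blood supply or gut contents of the tissue. With 1 suspension there is no replicate check, no test was possible and no p-value is given. Intervals are exact 95% Poisson intervals of summed counts or exact 95% binomial intervals of shares, and cover counting error only.

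Enterocytes are the absorptive cells of the intestinal lining. They arise in the crypts from dividing progenitors, stop dividing as they leave the crypt, and acquire a brush border of microvilli that carries digestive enzymes and transporters for sugars, peptides and amino acids. Inside the cell, fatty acid binding proteins and the chylomicron assembly machinery handle dietary fat, and retinol-binding and retinol-converting enzymes handle vitamin A. In the villus, genes of defence against microbes are known to be highest near the bottom, nutrient transporters in the middle, and apolipoproteins and purine-handling enzymes near the tip.

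The promoters of the 4 marker genes are shown first, since these genes define the cells described here. RefSeq promoter windows (GRCm38.p6, 250 bases before to 50 after the start of the gene) were searched on both strands for TTTATN, the core of the CDX motif, for CAAAGTC, a core of the HNF4 motif, and for GATAAG, the GATA motif. The 250 bases before the start are given 5′ to 3′ on the gene's strand, and capitals mark every match. They lie at chr9:98490287-98490536 (plus strand) for Rbp2, chr3:72967864-72968113 (minus strand) for Sis, chr6:71199629-71199878 (plus strand) for Fabp1 and chr3:122894822-122895071 (plus strand) for Fabp2.
Rbp2: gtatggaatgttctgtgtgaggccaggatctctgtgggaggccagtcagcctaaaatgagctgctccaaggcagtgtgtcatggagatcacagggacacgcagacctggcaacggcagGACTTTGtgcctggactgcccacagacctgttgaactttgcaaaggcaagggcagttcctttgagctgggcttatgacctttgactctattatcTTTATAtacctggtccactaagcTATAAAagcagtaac
Sis: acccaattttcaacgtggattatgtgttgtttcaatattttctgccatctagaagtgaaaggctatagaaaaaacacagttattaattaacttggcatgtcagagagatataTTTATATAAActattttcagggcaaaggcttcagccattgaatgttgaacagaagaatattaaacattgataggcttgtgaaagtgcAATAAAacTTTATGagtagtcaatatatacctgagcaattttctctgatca
Fabp1: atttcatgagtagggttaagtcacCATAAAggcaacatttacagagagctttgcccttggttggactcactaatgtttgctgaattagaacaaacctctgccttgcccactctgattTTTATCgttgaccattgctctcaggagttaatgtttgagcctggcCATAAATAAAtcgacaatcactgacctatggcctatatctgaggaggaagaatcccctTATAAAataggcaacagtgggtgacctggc
Fabp2: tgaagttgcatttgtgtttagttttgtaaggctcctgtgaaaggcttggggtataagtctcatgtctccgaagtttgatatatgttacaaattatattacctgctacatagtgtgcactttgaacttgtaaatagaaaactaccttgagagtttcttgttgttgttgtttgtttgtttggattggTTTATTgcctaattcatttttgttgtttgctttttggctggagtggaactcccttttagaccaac

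The CDX letters matched 2 times in the Rbp2 window, 4 times in that of Sis, 5 times in that of Fabp1 and 1 time in that of Fabp2, the HNF4 letters 1 time, in Rbp2, and the GATA letters in none of the 4. On the reverse strand TTTATN also takes in the letters of the TATA box, as in the last matches of Rbp2 and Fabp1. Among windows of the same length, TTTATN was found in 40.2% of 594 promoters of genes at least 2-fold higher in enterocyte-like cells, 28.2% of 542 promoters of genes at least 2-fold lower, 25.4% of 10181 promoters of all genes reaching 5 CPM and 39.9% of all 32851 promoters. CAAAGTC was found in 7.91%, 3.87%, 3.67% and 4.44% of the same sets and GATAAG in 8.25%, 8.67%, 5.23% and 7.44%. These are letter matches and not binding sites, and the sets were not tested against each other.

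Rbp2, a retinol-binding protein of enterocytes, stood at 560 CPM (550 to 570) over the enterocyte-like cells and 8.24 CPM (7.90 to 8.59) over other Matrigel cells. Sis, which encodes the brush border disaccharidase sucrase-isomaltase, stood at 337 CPM (329 to 345) and 1.57 CPM (1.42 to 1.73). Both genes had a count in 87 of the 120 cells, while 22 carried Rbp2 without Sis and 11 Sis without Rbp2. At the threshold, the 10 cells just inside had 101 to 108 CPM of both genes together and the 10 just outside 81.7 to 99.4 CPM. The median Fabp1 level was 158 CPM just inside and 121 CPM just outside, that of Fabp2 343 and 213 CPM, and Olfm4 had a count in 2 and 3 of the 10 cells. Between cells just inside and just outside, the Fabp1 and Fabp2 medians thus differed by less than 2-fold.

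The label was checked against the markers that the rule did not use. Fabp1, the liver-type fatty acid binding protein of proximal enterocytes, ranged from 0 to 40294 CPM per enterocyte-like cell with a median of 1099 CPM, and from 0 to 5627 CPM per other Matrigel cell with a median of 5.82 CPM. The ranges overlapped, and 97 of the 120 cells lay above percentile 90 of other cells, 65.6 CPM. Summed over cells, Fabp1 stood at 5511 CPM (5479 to 5543) against 42.4 CPM (41.6 to 43.1), a log2 ratio of 6.99. Fabp2, the intestinal-type binding protein, had a median of 402 CPM per enterocyte-like cell (0 to 4480) and of 169 CPM per other cell (0 to 1006). Its summed levels of 649 CPM (638 to 660) and 203 CPM (202 to 205) gave a log2 ratio of 1.67. Other Matrigel cells led by Paneth or goblet genes held 256 CPM of Fabp2, above the 203 CPM of all other cells. All kept collagen cells held 42.5 CPM. A count of Fabp2 alone therefore did not set enterocyte-like cells apart, and whether it is expression of the other Matrigel cells was not tested. All 4 markers had a count in 82 of the 120 cells, and 2 cells had neither Fabp1 nor Fabp2.

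**Figure D1:**
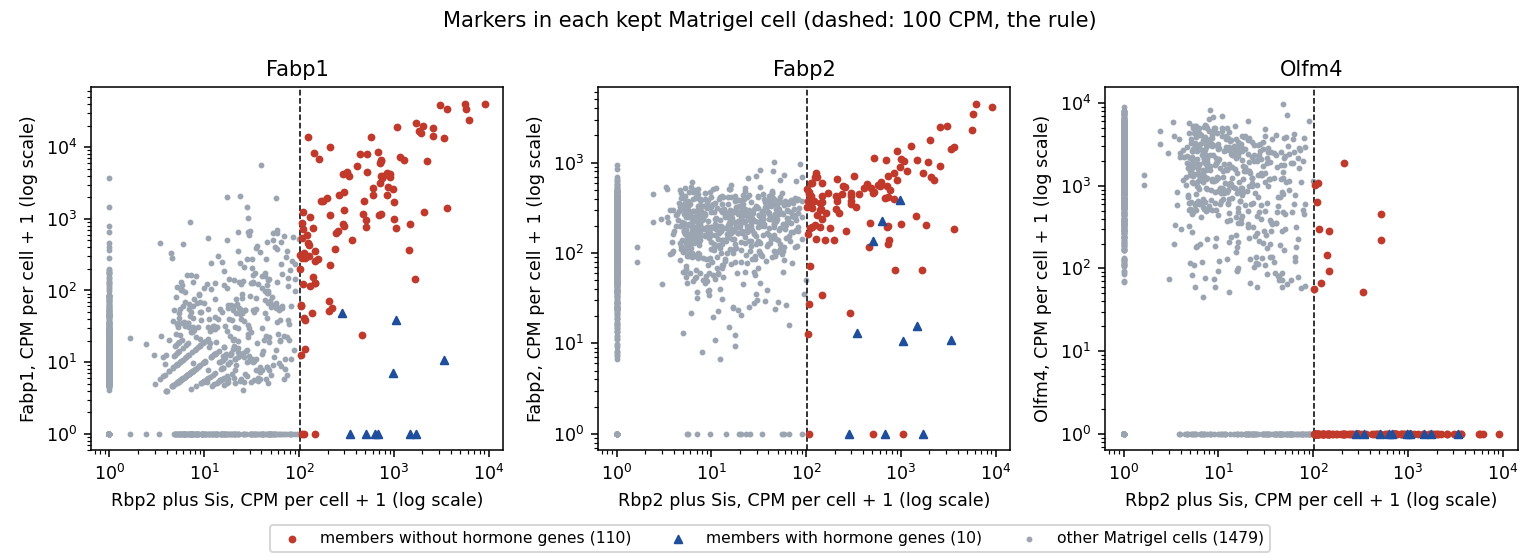
Level of Fabp1, Fabp2 and Olfm4 (CPM per cell plus 1, log scale) against Rbp2 plus Sis in each kept Matrigel cell; each point is 1 cell, red points and blue triangles are the enterocyte-like cells without (110) and with (10) hormone genes, grey points the other 1479 cells, and the dashed line is the rule. Fabp1 climbs with Rbp2 plus Sis except in the cells with hormone genes, Fabp2 is present on both sides, and Olfm4 is at 0 in most cells right of the line.

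Not every cell that met the rule was enterocyte-like in its other genes. In 10 of the 120 cells the enteroendocrine marker genes summed to 3674 to 153104 CPM per cell (median 48728), while the highest of the other 110 cells had 173 CPM. Every one of the 10 carried Chga, which encodes the granule protein chromogranin A, at 408 to 3999 CPM and the endocrine transcription factor gene Neurod1 at 64.2 to 643 CPM. The granule gene Chgb had a count in 9 of them (up to 69054 CPM), the cholecystokinin gene Cck in 4 (up to 84199 CPM), the secretin gene Sct in 9, the ghrelin gene Ghrl in 5 and the proglucagon gene Gcg in 3, with low values of Chgb and Cck absent from the table. In all 10, Sis alone met the rule (284 to 3398 CPM per cell), and in 3 of them Rbp2 alone did as well (152 to 987 CPM). They had at most 47.3 CPM of Fabp1, no count of Alpi and fewer counts per cell, with a median of 86528 against 199208 in the other 110 cells. One further cell held 49616 CPM of Paneth genes and 72051 CPM of goblet genes, against at most 2349 and 4698 CPM in any of the remaining 119. Among other Matrigel cells, 10 also had at least 1000 CPM of enteroendocrine genes (1178 to 69897 CPM per cell). They stayed among the comparison cells. Some results are given below with and without the cells that met the rule and carry hormone genes. These are the counts over all genes, the enteroendocrine and cell cycle inhibitor lists and the villus tip sums. Vim, Krt20, Cdkn1c, the genes most like Rbp2 plus Sis and the values of the collagen culture are given in both ways as well.

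Enterocyte-like cells and other Matrigel cells were alike in depth. The median was 191724 counts per cell (31899 to 482509) in enterocyte-like cells and 178645 (30219 to 533149) in other cells, with 9280 and 9465 detected genes and a mitochondrial share of 4.71% and 4.63%. The Matrigel hashtag made up at least 91.0% of both hashtags in every enterocyte-like cell and less than 95% in 4 of them. Epcam, the epithelial surface gene behind the hashtag, stood at 1109 and 1073 CPM. Genes of immune cells and of tuft cells did not reach 5 CPM in either group, with the T cell genes Cd3e and Cd3g at 0 in enterocyte-like cells. Of the stromal and endothelial list only Vim did, at 57.0 against 0.428 CPM, and without the 10 cells with hormone genes its log2 ratio was -0.25.

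Across all genes, 10440 reached 5 CPM in either group besides Rbp2 and Sis. Of these, 569 (5.45%) were at least 2-fold higher in enterocyte-like cells and 556 (5.33%) at least 2-fold lower, with 1 CPM added to both levels, and the median log2 ratio was -0.08. Against the 225 other cells without Olfm4 the shares were 3.35% higher and 3.55% lower of 10417 genes. Without the 10 cells with hormone genes, 491 genes were higher by 2-fold or more and 649 were lower by as much. Since the cells were picked from these same counts, the shares describe the cells and support nothing by themselves.

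Beside Fabp1, several enzyme genes had large ratios toward enterocyte-like cells. The glutathione transferase gene Gsta1 had a log2 ratio of 6.43 (873 against 9.14 CPM), but only 0.251% of its values were whole numbers, as where reads are shared between near-identical genes, and its low values are absent from the table, so its level is uncertain. Filling every 0 of Gsta1 with its smallest kept value gave a log2 ratio of 2.71. The cytochrome P450 gene Cyp2c66 had a ratio of 5.53 (146 against 2.17 CPM) and Arg2, the mitochondrial arginase, one of 5.67 (132 against 1.61 CPM). The list of urea cycle and amino acid enzymes that holds Arg2 had 2 of 14 genes at least 2-fold higher, 1 lower and a median of 0.03. Arg2 had a median of 36.2 CPM per enterocyte-like cell (0 to 710), while the median of other cells was 0 (0 to 156). Aldh1a1, a retinaldehyde dehydrogenase that makes retinoic acid, had a ratio of 4.75 (205 against 6.63 CPM), and the alcohol dehydrogenase genes Adh4 and Adh6a had ratios of 4.92 and 4.27. Adh1, whose low values are absent, had a median of 1188 CPM per enterocyte-like cell (0 to 8745) and 59.2 CPM per other cell (0 to 4130), and a log2 ratio of 3.73, or 3.52 with its zeros filled.

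Summed counts of the sialyltransferase gene St3gal4 came to 599 CPM (589 to 610) against 21.2 CPM (20.6 to 21.7). The carboxylesterase gene Ces1f (97.6 against 2.54 CPM), the complement factor H-related gene Cfhr2 (78.2 against 3.96 CPM) and the calcineurin-like gene Chp2 (80.3 against 4.47 CPM) lay at log2 ratios of 4.80, 4.00 and 3.89. Alpi, the intestinal alkaline phosphatase of the brush border, had a ratio of 3.86 (280 against 18.4 CPM). Krt20, a keratin of mature gut lining, stood at 87.2 against 1.66 CPM (ratio 5.05). Part of the Krt20 level came from the cells with hormone genes, which held 947 CPM, and without them its ratio was 4.25.

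**Figure D2:**
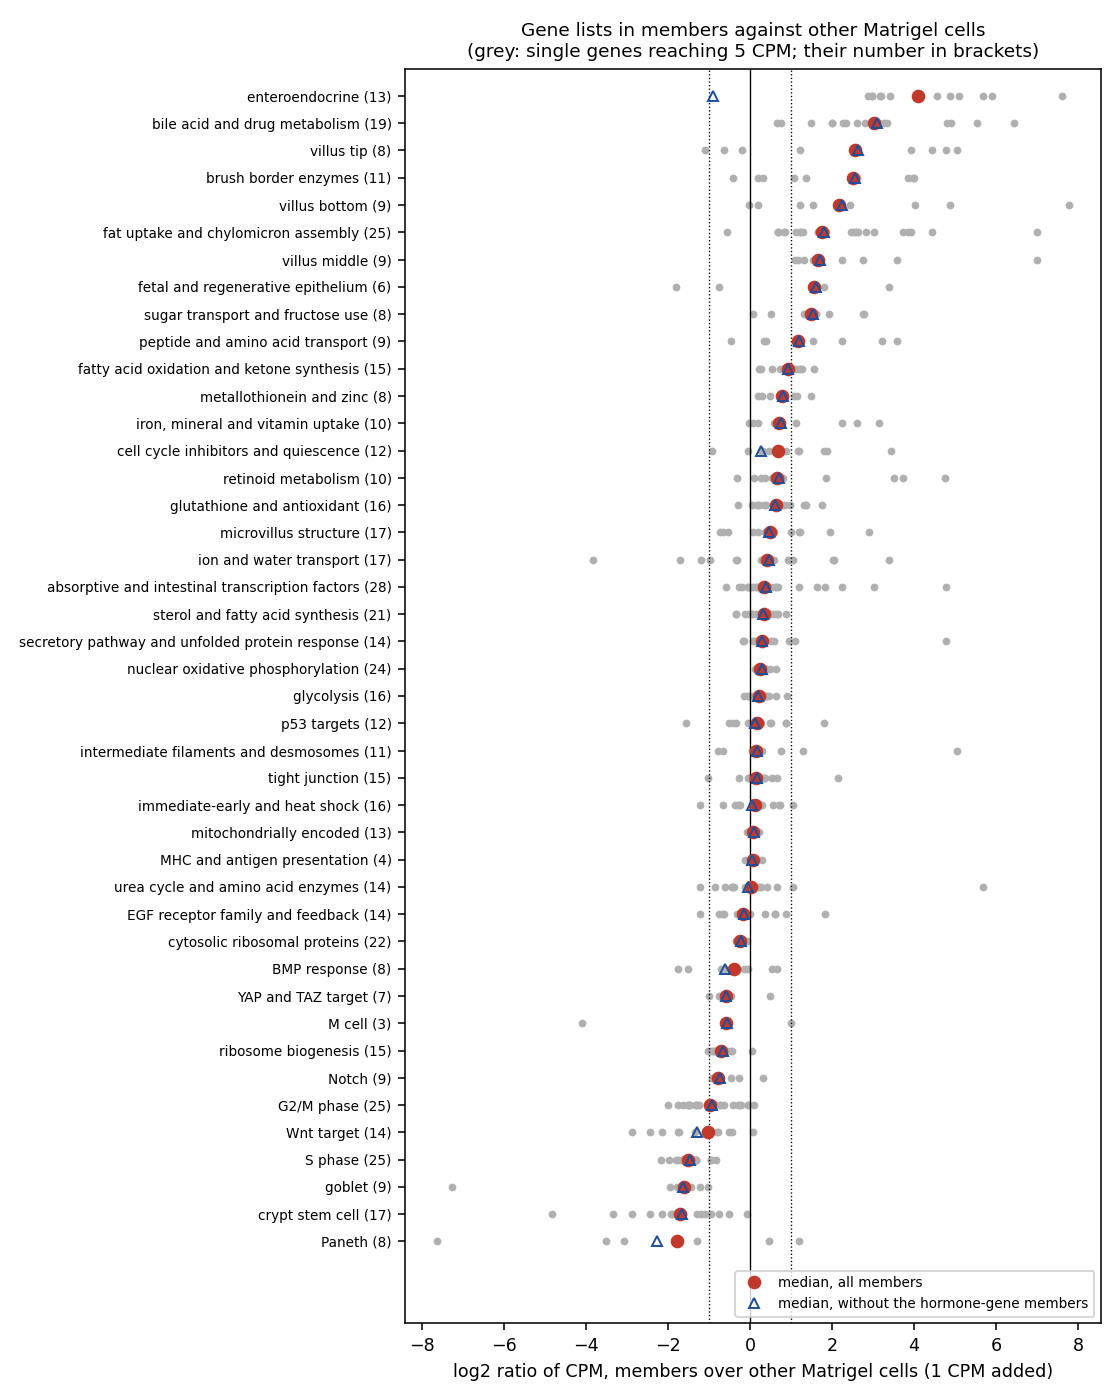
Log2 ratio of CPM, enterocyte-like cells (members) over other Matrigel cells with 1 CPM added, for gene lists with at least 3 genes reaching 5 CPM; grey points are genes, red points list medians and open triangles the medians without the 10 cells with hormone genes, and dotted lines mark 2-fold. Bile acid and drug metabolism (median 3.04) and brush border enzymes (2.51) lie to the right, the crypt stem cell (-1.71) and S phase (-1.52) lists to the left, and the enteroendocrine median crosses 0 when the 10 cells are left out.

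Digestive enzymes of the brush border were mostly higher. Of 18 listed, 11 reached 5 CPM, of which 8 were at least 2-fold higher and none lower, with a median log2 ratio of 2.51. Beside Alpi these included the peptidase genes Enpep (33.9 against 1.17 CPM) and Mep1b (31.9 against 4.78 CPM), and the trehalase gene Treh (21.6 against 2.97 CPM). The maltase-glucoamylase gene Mgam (109 against 87.4 CPM) and the dipeptidyl peptidase gene Dpp4 (35.7 against 48.1 CPM) lay within 2-fold, and the lactase gene Lct was near 0 at 0.306 and 0.664 CPM. The scaffold of the microvilli differed less, with 5 of 17 genes at least 2-fold higher, none lower and a median of 0.50. Cdhr5, a protocadherin that links microvilli, stood at 78.9 against 19.6 CPM and the motor gene Myo1a at 162 against 69.5 CPM, while the actin bundler gene Vil1 (181 against 132 CPM) lay within 2-fold.

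Genes of fat uptake and chylomicron assembly were mostly higher. Of 27 listed genes 25 reached 5 CPM, of which 19 were at least 2-fold higher and none lower, with a median of 1.75. Mttp, the transfer protein that loads lipid onto apolipoprotein B, had a median of 121 CPM per enterocyte-like cell (0 to 1508) and of 21.7 CPM per other cell (0 to 552). Its summed levels were 172 CPM (166 to 178) against 30.2 CPM (29.5 to 30.9), so that the 2 groups overlapped cell by cell while their sums lay far apart. The monoacylglycerol acyltransferase gene Mogat2 stood at 57.4 against 7.17 CPM, the cholesterol uptake gene Npc1l1 at 39.4 against 5.48 CPM and the sterol exporter genes Abcg5 and Abcg8 at 25.9 against 1.03 CPM and 14.2 against 1.52 CPM. The apolipoprotein genes Apoa1 (82.8 against 2.89 CPM), Apoa4 (44.96 against 2.01 CPM) and Apoc3 (34.0 against 1.41 CPM) had higher sums but a median of 0 per cell in both groups. For Apoa1, 1 cell supplied 22.4% of the sum. Cd36, a fatty acid translocase, stayed low at 1.81 against 0.370 CPM.

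Genes of sugar use and transport were mostly higher. Of 8 genes reaching 5 CPM, 6 were at least 2-fold higher and the median was 1.49. Ketohexokinase (Khk, 217 against 56.1 CPM, log2 ratio 1.93, or 1.76 with its absent low values filled), the sodium-glucose cotransporter gene Slc5a1 (90.3 against 35.9 CPM) and the fructose transporter gene Slc2a5 (14.9 against 1.34 CPM) were among these. The basolateral glucose transporter gene Slc2a2 was at 3.83 against 0.471 CPM and fell short of 5 CPM.

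Amino acid transporters had 6 of 9 genes at least 2-fold higher and a median of 1.17. Slc6a19, the main apical carrier of neutral amino acids, stood at 16.8 against 0.479 CPM, and the cystine carrier subunit genes Slc7a9 (20.01 against 3.46 CPM) and Slc3a1 (21.1 against 6.68 CPM) at log2 ratios of 2.24 and 1.53. The peptide transporter gene Slc15a1 was low in both groups, at 1.74 and 0.142 CPM. In the list of iron, mineral and vitamin uptake 4 of 10 genes were at least 2-fold higher. These were the calcium-binding gene S100g (205 against 22.4 CPM), the apical iron importer gene Slc11a2 (122 against 19.0 CPM), the iron exporter gene Slc40a1 (27.0 against 4.94 CPM) and the ferritin gene Fth1 (2645 against 1218 CPM). Among retinoid genes 4 of 10 were higher, Aldh1a1, Adh1, the retinol dehydrogenase gene Rdh7 (46.5 against 3.19 CPM) and Dgat1 (155 against 41.9 CPM), while Isx, a retinoic acid-responsive repressor, lay within 2-fold (103 against 86.2 CPM).

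Detoxification genes were nearly all higher. In the bile acid and drug metabolism list 17 of 19 genes were at least 2-fold higher and none lower, with a median of 3.04. The cytochrome P450 gene Cyp2d26 stood at 91.5 against 9.55 CPM, Cyp3a13 at 48.4 against 4.08 CPM and Cyp2c65 at 187 against 46.1 CPM. Slc51a, a subunit of the basolateral bile acid exporter, stood at 15.98 against 0.684 CPM, while the ileal bile acid genes Slc10a2 (0.236 against 0.163 CPM) and Fabp6 (0.189 against 0.708 CPM) were near 0 in both. Fatty acid oxidation genes had 7 of 15 at least 2-fold higher (median 0.94), with the carnitine palmitoyltransferase gene Cpt1a at 103 against 46.8 CPM. All 24 genes of oxidative phosphorylation and all 16 of glycolysis lay within 2-fold, as most of all genes did, with medians of 0.25 and 0.21.

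Genes known from the zones of the villus were set side by side. Of the bottom genes 7 of 9 were at least 2-fold higher (median 2.17), of the middle genes 9 of 9 (median 1.67) and of the tip genes 5 of 8, with 1 lower (median 2.57). These lists share genes with those above. Fabp1, Fabp2, Slc2a5, Slc6a19, Slc7a9 and Slc3a1 are on the middle list, and Apoa1, Apoa4, Krt20 and Creb3l3 on the tip list. Under 19 alternatives the tip median ranged from 0.41 to 4.18. At the bottom end, the antimicrobial genes Lypd8 (1199 against 411 CPM), Dmbt1 (634 against 140 CPM) and Reg3g (72.1 against 12.5 CPM) were higher, while the immunoglobulin receptor gene Pigr (1208 against 1057 CPM) lay within 2-fold. Reg1, an antimicrobial lectin gene whose low values are absent, had a count in 8 enterocyte-like cells and is listed at 0 in all 1479 other cells. One cell supplied 57.1% of the summed 220 CPM of Reg1, and with its zeros filled the log2 ratio was 0.89. At the tip end, Apoa1, Apoa4, Krt20, Apob (48.9 against 20.6 CPM) and Creb3l3 were higher. The adenosine deaminase gene Ada was lower, at 7.92 against 18.1 CPM, and the purine enzyme gene Nt5e was near 0 at 0.141 and 0.321 CPM.

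Transcription factors differed less than the genes of absorption. Of 28 reaching 5 CPM, 6 were at least 2-fold higher, 22 lay within 2-fold and none was lower (median 0.35). Hnf4a, the nuclear receptor that many enterocyte genes depend on, stood at 289 CPM (282 to 296) and 287 CPM (285 to 289), and the intestinal identity gene Cdx2 at 154 and 161 CPM. Hnf4g, the paralog of Hnf4a, was higher at 97.9 CPM (93.8 to 102) against 19.8 CPM (19.3 to 20.4), with medians of 61.5 and 9.28 CPM per cell. The largest ratio was that of Creb3l3, a membrane-bound activator of lipid genes, at 4.78 (34.7 against 0.295 CPM). It was detected in 36.7% of enterocyte-like cells and 3.58% of other cells, and after thinning to equal depth in 28.6% and 1.79%, against 1.75% of cells led by Paneth or goblet genes. The xenobiotic receptor gene Nr1i3 (29.3 against 2.71 CPM), the lipid sensor gene Ppara (31.8 against 8.23 CPM) and the bile acid receptor gene Nr1h4 (31.2 against 9.32 CPM) were also higher. Prdm1, a repressor known from fetal intestine, was near 0 at 1.23 and 1.51 CPM.

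Crypt stem cell genes were lower in enterocyte-like cells, with 13 of 17 at least 2-fold lower, none higher and a median of -1.71. Olfm4, which marks crypt base cells, had a count in 13 of the 120 cells, and stood at 61.6 CPM (58.4 to 65.1) against 1764 CPM (1759 to 1769), a log2 ratio of -4.82. Low values of Olfm4 are absent below 12 counts and only 18.7% of its values are whole, and with its zeros filled by that smallest value the ratio was -3.85. Lgr5, the R-spondin receptor of cycling stem cells, had a median of 4.67 CPM per enterocyte-like cell (0 to 372) and of 124 CPM per other cell (0 to 2367). The sums were 25.7 CPM (23.6 to 27.9) and 142 CPM (141 to 144). Ascl2, a stem cell transcription factor (5.54 against 46.8 CPM), Gkn3 (5.61 against 66.1 CPM) and the basolateral chloride importer gene Slc12a2 (172 against 568 CPM) followed, while Prom1 lay within 2-fold (84.7 against 89.3 CPM). Among Wnt targets 7 of 14 were at least 2-fold lower (median -1.03), with the feedback gene Axin2 at 38.6 against 173 CPM. Axin2, Lgr5, Ascl2, Sox9 and Cd44 are on both lists. Other genes with large ratios toward other Matrigel cells were the interferon-induced gene Ifitm3 (43.1 against 515 CPM), Igfbp4 (7.54 against 71.6 CPM), Rgcc (25.7 against 170 CPM) and the cysteine dioxygenase gene Cdo1 (13.8 against 72.2 CPM).

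Against the 225 other cells without Olfm4, the stem cell list was closer to the level of the comparison cells. The stem cell list then had 6 of 17 genes at least 2-fold lower and 1 higher, which is Olfm4 itself, listed at 0 in the comparison cells by choice, and a median of -0.67. Lgr5 stood at 25.7 CPM against 81.0 CPM in those cells (log2 ratio -1.62), while Gkn3 had a ratio of -0.19. Fabp1 had a ratio of 5.10 there, Arg2 5.27 and Alpi 1.64, and the bile acid and drug metabolism list a median of 2.47. Those 225 cells held 6547 CPM of Paneth genes and 6323 CPM of goblet genes, against 327 and 446 CPM in enterocyte-like cells, and the part of these cells in the differences was not tested.

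Genes of DNA replication and division were lower. Of 12 genes of cell cycle inhibition and quiescence 5 were at least 2-fold higher and none lower (median 0.68). Without the cells with hormone genes 4 were higher and 1 lower (median 0.26). In the S phase list 22 of 25 genes were at least 2-fold lower and none higher, with a median of -1.52, and in the G2/M list 12 of 25 with a median of -0.97. The replication helicase gene Mcm2 stood at 23.6 against 81.7 CPM, the topoisomerase gene Top2a at 13.1 against 55.2 CPM and the proliferation marker Mki67 at 14.9 against 48.2 CPM. Mki67 had a count in 56 of the 120 enterocyte-like cells. After thinning to equal depth that share was 38.8% (29.1 to 49.2), against 63.9% (61.2 to 66.5) of other Matrigel cells. It was 45.6% (32.4 to 59.3) in the other Matrigel cells led by Paneth or goblet genes. Those cells held 31.7 CPM of Mki67. Whether the Mki67 counts in enterocyte-like cells are expression of those cells was not tested. Cdkn2b, an inhibitor of cyclin D kinases, was the inhibitor with the largest ratio at 3.44 (73.3 against 5.85 CPM; median 35.9 CPM per enterocyte-like cell and 0 per other cell). Cdkn1a, the p21 inhibitor gene, stood at 233 against 65.8 CPM. Cdkn1c had a ratio of 1.88 with all cells and of -0.73 without the cells with hormone genes. Genes of ribosome biogenesis had a median of -0.70, with 1 of 15, Gnl3, at least 2-fold lower (85.8 against 177 CPM), and ribosomal protein genes made up 24.6% of all counts in enterocyte-like cells and 28.9% in other cells.

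**Figure D3:**
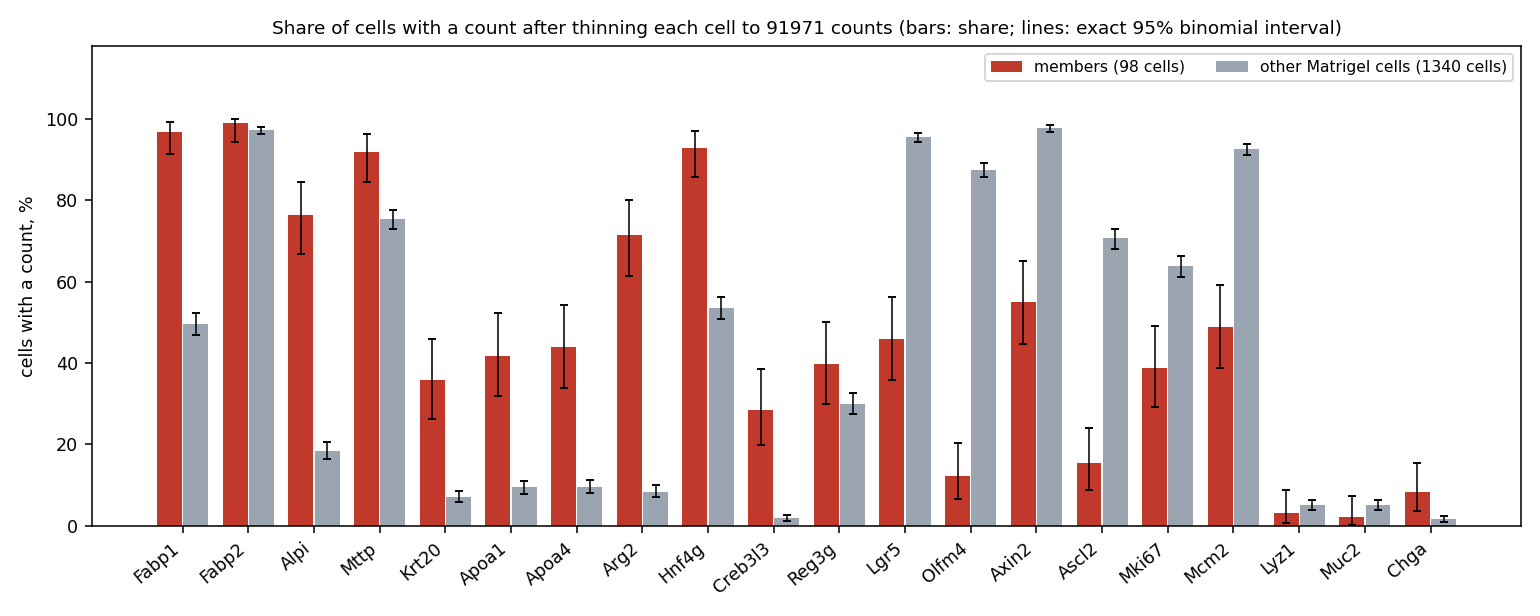
Share of cells with at least 1 count of a gene after every cell was thinned to 91971 counts, for 98 enterocyte-like cells (members, red) and 1340 other Matrigel cells (grey); bars are shares and lines exact 95% binomial intervals. Alpi, Arg2 and Creb3l3 are carried by more of the enterocyte-like cells, Lgr5, Olfm4, Axin2, Ascl2 and Mcm2 by more of the other cells, and Fabp2 by nearly all of both.

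For shares of cells, every cell was first thinned at random to 91971 counts, and 22 enterocyte-like and 139 other cells below that depth were left out. Fabp1 was found in 96.9% of 98 enterocyte-like cells (91.3 to 99.4) and 49.6% of 1340 other cells (46.8 to 52.3), against 92.5% and 62.3% without thinning. Arg2 was found in 71.4% (61.4 to 80.1) and 8.36% (6.93 to 9.97), and in 66.7% and 10.3% without thinning. Alpi was found in 76.5% and 18.4%, and in 79.2% and 23.8% without thinning. As a background served 57 thinned cells led by Paneth or goblet genes, which are part of the other Matrigel cells. They came from 69 such cells with a median of 161440 counts per cell before thinning. Fabp1 had a count in 45.6% of the 57 (32.4 to 59.3), Alpi in 12.3% (5.08 to 23.7), Apoa1 in 19.3% and Arg2 in 3.51% (0.43 to 12.1). The shares of other Matrigel cells with Fabp1, Alpi and Arg2 lay inside these intervals, and whether they are expression was not tested. The share of other Matrigel cells with Apoa1, 9.40%, lay below that background and is not read as expression. The same holds for Apoa4 (9.48% against 10.5% of the background cells) and Krt20 (7.01% against 12.3%). The share of enterocyte-like cells with Apoa1 was 41.8% (31.9 to 52.2). Without thinning the Apoa1 shares were 44.2% in enterocyte-like cells and 13.4% in other cells. Lgr5 was found in 45.9% (35.8 to 56.3) of enterocyte-like cells and 95.7% of other cells (55.0% and 96.3% without thinning). It was also found in 73.7% of the cells led by Paneth or goblet genes, which held 107 CPM. Whether the Lgr5 counts in enterocyte-like cells are expression of those cells was not tested.

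The enterocyte-like cells were not uniform, and their Rbp2 plus Sis level ran from 101 to 9065 CPM with a median of 424 CPM. Matrigel cells were therefore ordered by that level, with 55 cells from 100 to under 300 CPM, 37 from 300 to under 1000 CPM and 28 from 1000 CPM. Fabp1 stood at 17.1 CPM in the 871 cells without Rbp2 or Sis, 131 CPM in the 162 cells from 30 to under 100 CPM, and 1386, 4095 and 16520 CPM in the 3 groups of enterocyte-like cells. Fat uptake genes summed to 728 CPM in the cells without Rbp2 or Sis and to 2683, 6173 and 20972 CPM in the 3 groups. The fat, sugar, retinoid, detoxification and brush border sums were thus higher in each successive group above the rule. Median counts per cell in the 3 groups were 200566, 171439 and 180506, which do not follow that order.

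**Figure D4:**
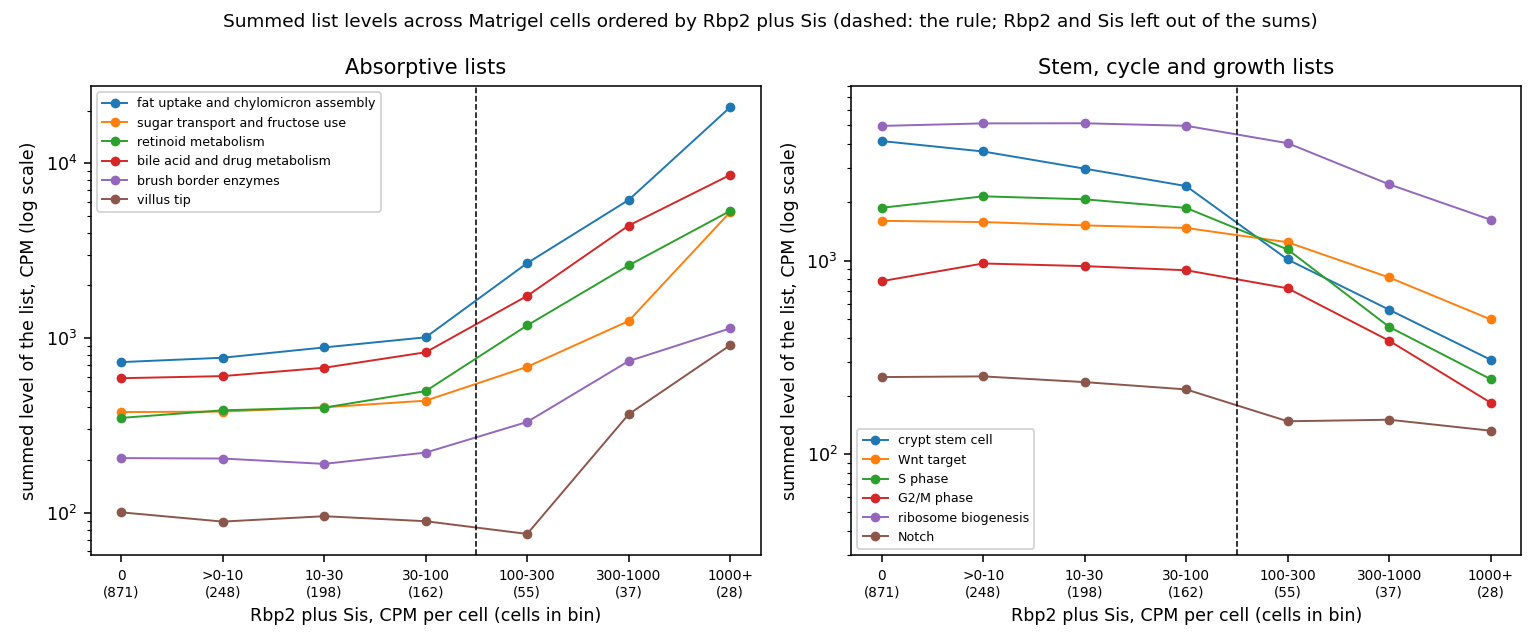
Summed level of gene lists (CPM, log scale) over Matrigel cells in 7 groups ordered by Rbp2 plus Sis per cell, with the number of cells in brackets; Rbp2 and Sis are left out of the sums and the dashed line is the rule. Absorptive lists (left) climb above the rule while stem cell, cell cycle and ribosome biogenesis lists (right) decline. The villus tip sum is 75.5 CPM in the lowest enterocyte-like group, 366 CPM in the middle one and 909 CPM in the highest. Without the cells with hormone genes, which are part of the plotted sums, it is 74.1, 246 and 960 CPM.

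Several genes were found mostly at the high end. Apoa1 stood at 5.26, 58.6 and 286 CPM in the 3 groups, Apoa4 at 4.58, 21.6 and 166 CPM and Creb3l3 at 3.52, 22.2 and 120 CPM. Creb3l3 had a count in 6 of 55, 17 of 37 and 21 of 28 cells. All 8 cells with Reg1 were among the 28 cells from 1000 CPM. Krt20 stood at 2.73, 164 and 170 CPM, of which 2.74, 41.4 and 173 CPM were left in the 54, 32 and 24 cells without hormone genes. Hnf4g also differed between the groups (47.0, 106 and 199 CPM). Hnf4a (300, 295 and 256 CPM) and Cdx2 (165, 148 and 139 CPM) differed by less than 2-fold. Without the cells with hormone genes Hnf4a stood at 301, 305 and 269 CPM and Cdx2 at 165, 146 and 127 CPM.

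Stem cell and replication genes had not reached their lowest level in cells just above the rule. Olfm4 stood at 2094 CPM in cells without Rbp2 or Sis, 882 CPM in those from 30 to under 100 CPM, and 99.4, 45.6 and 0 CPM in the 3 groups of enterocyte-like cells, with a count in 10 of 55, 3 of 37 and 0 of 28 cells. Lgr5 stood at 162 CPM in cells without Rbp2 or Sis and 41.6, 16.5 and 2.83 CPM in the 3 groups. Mcm5 stood at 150 CPM and then 92.7, 29.2 and 5.80 CPM, and Mki67 at 46.5 CPM and then 21.6, 13.3 and 2.15 CPM. Ribosome biogenesis genes summed to 4968 CPM in cells without Rbp2 or Sis and to 4046, 2478 and 1626 CPM in the 3 groups. In the lowest of the 3 groups Mcm5 and Mki67 were thus above their levels in the other 2 groups, while Fabp1 was below its levels there.

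Within the 120 cells, 2462 genes with a count in at least 50% of them and at least 50 CPM were ranked by their Spearman correlation with Rbp2 plus Sis. These are correlations across cells of 1 library, given as a description. Over all 120 cells the 10 most alike were Plac8 (rho 0.68), Cyp2d26 (0.66), Gsta1 (0.65), Akr1c19 (0.65), Cdhr5 (0.63), Aldh1a1 (0.63), Cyb5r3 (0.62), Gramd3 (0.60), Cyp2j6 (0.60) and Fmo5 (0.60). Plac8 had a median of 708 CPM per enterocyte-like cell and 288 CPM per other cell. The most opposed genes were the nucleolar genes Ncl (-0.68) and Nop56 (-0.66), the growth-related gene Pa2g4 (-0.65) and the chloride importer gene Slc12a2 (-0.65). Rbp2 and Sis themselves had a rho of 0.31 with each other, and their sum one of -0.08 with the counts per cell. Without the 10 cells with hormone genes the order changed, and 4 of the 10 most alike genes were shared between the 2 rankings, Aldh1a1 (0.78), Gsta1 (0.78), Fmo5 (0.73) and Gramd3 (0.73). Mttp then had a rho of 0.75, while Plac8 (0.68) was at rank 20 and Cdhr5 (0.66) at rank 27. Ncl (-0.68), Pa2g4 (-0.68) and Nop56 (-0.66) were still among the 10 most opposed, of which 7 were shared.

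**Figure D5:**
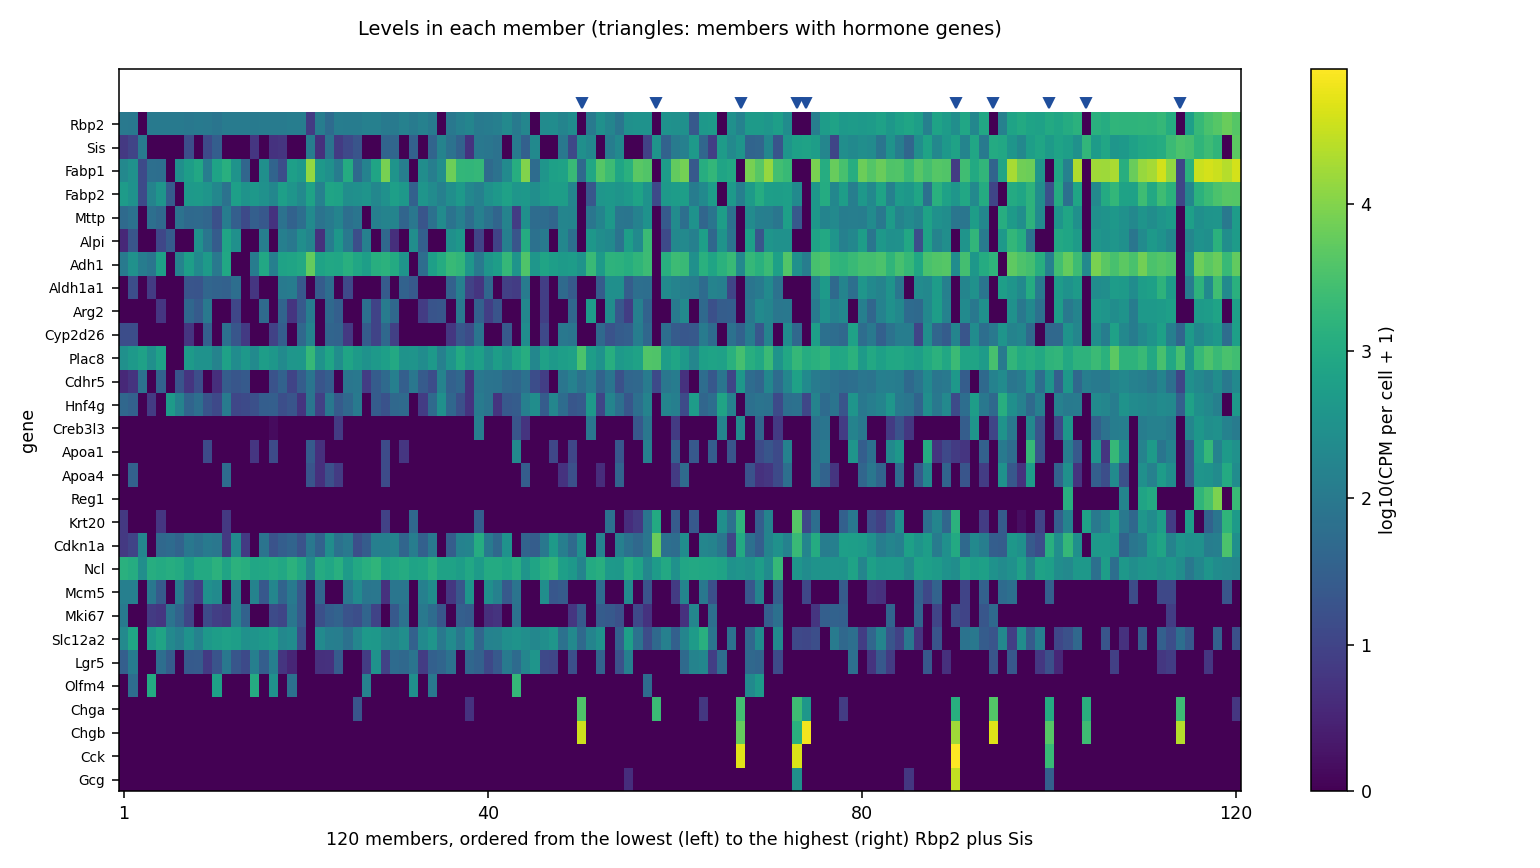
Level of the genes named beside the rows (log10 of CPM per cell plus 1, colour scale) in each of the 120 enterocyte-like cells, ordered from the lowest to the highest Rbp2 plus Sis; triangles mark the 10 cells with hormone genes. Fabp1, Apoa1 and Creb3l3 brighten to the right, Mcm5, Mki67, Lgr5 and Olfm4 darken, and Chga and Chgb are bright under the triangles, where Fabp1, Alpi and Mttp are dark.

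Markers of the other secretory cells were low in most enterocyte-like cells. Of 8 Paneth genes reaching 5 CPM, 6 were at least 2-fold lower and 1 was at least 2-fold higher (median log2 ratio -1.78). Of 9 such goblet genes all 9 were at least 2-fold lower (median -1.62). Paneth genes summed to a median of 20.8 CPM per enterocyte-like cell and 23.4 CPM per other cell, with 9 and 11 of the 11 genes having a count and with Defa17 and Mptx1 at 0 in enterocyte-like cells. Goblet genes summed to medians of 27.1 and 42.8 CPM, with 10 and 12 of 12 genes having a count and with Agr2 and Atoh1 at 0. Defa17, Defa3 and Agr2, whose low values are absent, are listed at 0 in all 120 cells and have a value in 1.62%, 1.49% and 2.7% of other cells, and the values of Defa17 and Defa3 are not whole numbers, so their levels are uncertain. Enteroendocrine genes had 13 of 13 at least 2-fold higher with all cells while without the 10 cells 0 of 13 were higher and 5 were lower, with a median of -0.90. Tuft cell genes summed to 6.78 and 13.0 CPM.

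The rule was met by 7.50% (6.26 to 8.91) of kept Matrigel cells, against 3.27% (1.65 to 5.78) of kept collagen cells, 11 of 336. Matrix, medium and cell release (collagenase at 0.5 mg/mL for collagen alone) differed between the cultures together, so their parts cannot be told apart, and 11 cells are too few for more than their values. Hormone genes summed to at least 1000 CPM in 10 of the 120 Matrigel cells and 4 of the 11 collagen cells. Median counts per cell were 191724 and 58065. With all cells, Fabp1 had a median of 1099 CPM per Matrigel cell and 59.3 CPM per collagen cell (0 to 14245), and Alpi one of 139 and 172 CPM (0 to 1963 in collagen cells). Without the cells with hormone genes, 110 Matrigel and 7 collagen cells were left, with medians of 199208 and 44909 counts per cell. The medians of Fabp1 were then 1247 and 862 CPM and those of Alpi 190 and 871 CPM, so that the Fabp1 medians lay within 2-fold and the Alpi median was higher in collagen cells. Krt20 had a median of 0 in Matrigel cells and 97.6 CPM in collagen cells with all cells, and of 0 and 192 CPM without those with hormone genes. The mucin gene Muc3 had medians of 0 and 353 CPM with all cells, and of 0 and 864 CPM without those with hormone genes. Olfm4 is listed at 0 in the 11 collagen cells, of which 3 had a count of Lgr5.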

How the data were processed

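Single cells were caught with BD Rhapsody and their cDNA amplified by TAS-Seq, per the labels' protocols. The submitters' processing notes name cutadapt 4.1, STARsolo 2.7.10a, R 4.2.1 and GRCm39, with no role or order; for the annotation, the name was not given in the sources used here. The authors deposited an expression table of expected counts, not scaled, for 37172 genes and 2090 cells (75.6% whole within 1e-06). No source used here says whether copies of a molecule were merged, so intervals may be too narrow. For the first 49 genes of the table low values are absent, with smallest kept values of 3.33 to 183. The authors deposited hashtag counts for 200497 barcodes, including all 2090 cells, whose barcodes are distinct, and its 9 columns of other hashtags were not used. Cell names give the culture, and the 139 cells named as doublets were left out. No doublet caller was run.

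Counts were summed over cells and scaled to 1000000 (CPM), and sums were rounded before Poisson intervals were computed (scipy 1.17.1, numpy 2.4.6, pandas 2.3.3, Python 3.11.15, 95% level). Log2 ratios add 1 CPM, which understates low genes, and genes reaching 5 CPM in either group entered. The calculation was tested on simulated data. The cells, the 47 gene lists (12 of 691 symbols had no row) and the thresholds were chosen with earlier results of these data known. Named genes were the 15 with the largest ratio each way among genes of at least 50 CPM and 100 counts (and a count in 25% of enterocyte-like cells if higher), up to 6 per list of at least 10 CPM, the 10 most like Rbp2 plus Sis and a fixed set, of which some are not reported here. Other genes of the lists, the genes opposed to Rbp2 plus Sis and Reg1's count of cells were named after their values were seen. The 10 enterocyte-like cells with at least 1000 CPM of enteroendocrine genes, and cells with at least 5000 CPM of Paneth or goblet genes, were set apart after seeing the data. Sequences are from RefSeq (GRCm38.p6, another build than that of the table) and serve as sequence only.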

Additional observations from a re-analysis of the deposited data

Results flagged for a closer look

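Cells named as doublets took no part in the comparisons. Of the 137 kept, 5 met the rule of at least 100 CPM of Rbp2 plus Sis, or 3.65% (exact 95% binomial interval 1.20 to 8.31). That interval includes 2.19%, the share that a count of 0 would allow. The share among Matrigel cells was 7.50%.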

How the results depend on the processing

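No paired analysis was possible because there was 1 suspension per culture, and for the same reason no replicate could be left out. Under 19 alternatives, 11 of 165 named genes at least 2-fold apart took the other sign. The counts of genes at least 2-fold higher and lower (569 and 556) became 370 and 194 with 191 cells from 50 CPM, 1069 and 1249 with 62 cells chosen by Sis alone, 292 and 148 with 10 CPM added, 351 and 246 for genes from 20 CPM, and 349 and 370 against other cells without Olfm4, with 960 lower from 200 CPM. Without the cells with hormone genes, and without the cell with Paneth and goblet genes as well (both chosen after seeing the data), the enteroendocrine median over genes still reaching 5 CPM was -4.05 and -4.05. The log2 ratios were then -0.73 and -0.90 for Cdkn1c, -0.11 and -0.11 for Gcg, -4.05 and -4.05 for Cck, -1.26 and -1.26 for Tac1, -4.74 and -4.74 for Chgb, -0.90 and -0.89 for Ghrl, -1.69 and -1.69 for Sct, -0.25 and -0.25 for Vim, and -2.75 and -2.75 for Chga. Against cells without Olfm4, Olfm4 was at 5.97, Lgals3 at -0.23 and the fetal and regenerative median at -0.23 over the genes reaching 5 CPM in that comparison (0.11 over the 6 genes of the main one), and with every gene that had a count that median was -0.035. Apart from the left-out cells and the lack of Olfm4 in the comparison cells, the cause was not tested.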

Other observations

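Further lists held genes that differed between the enterocyte-like cells and other Matrigel cells. Metallothionein Mt1, which binds zinc, had a median of 7364 CPM per enterocyte-like cell (101 to 33437) and of 3570 CPM per other cell, and summed levels of 9239 CPM (9198 to 9280) and 4197 CPM (4189 to 4205). The zinc importer genes Slc39a14 (64.2 against 22.1 CPM) and Slc39a5 (93.2 against 43.8 CPM) were higher as well, so that 3 of 8 genes of the list were at least 2-fold higher and none lower. The antioxidant genes Gpx1 (1305 against 668 CPM), Gstm1 (769 against 306 CPM) and Nqo1 (64.8 against 18.5 CPM) had log2 ratios of 0.97, 1.33 and 1.75, and 3 of 16 genes of their list were at least 2-fold higher and 13 within 2-fold. Of the immediate-early and heat shock genes 14 of 16 lay within 2-fold, and of the tight junction genes 13 of 15, as most of all genes did. Among all 10440 genes compared, 5.45% were higher by 2-fold or more and 5.33% were lower by as much. The counts of these 2 lists and of the antioxidant list were not tested against those shares. Krt19, a simple epithelial keratin, lay above the percentile 90 of other cells in 93 of the 120 cells, at 1838 against 746 CPM, while Krt18 stood at 334 against 574 CPM. In ion transport, the anion exchanger genes Slc26a6 (28.7 against 1.84 CPM) and Slc26a3 (54.0 against 12.4 CPM) were higher and the water channel gene Aqp4 lower (62.1 against 144 CPM).

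Signalling genes of the crypt varied in size of difference. All 9 Notch genes reaching 5 CPM lay within 2-fold, as most of all genes did, with a median of -0.78 and Hes1 at 22.4 against 43.8 CPM. In the BMP list the inhibitor gene Id2 (26.3 against 77.3 CPM) and Bmp7 (5.65 against 21.4 CPM) were at least 2-fold lower. Among EGF receptor genes the ligand gene Areg, whose low values are absent, stood at 134 against 36.9 CPM and Etv4 at 14.2 against 34.0 CPM. The fetal and regenerative list had 4 of 6 genes at least 2-fold higher, Anxa10 (40.1 against 2.91 CPM), S100a6 (501 against 143 CPM), Lgals3 (55.0 against 17.3 CPM) and Muc3 (10.0 against 2.85 CPM), and 1 lower, Clu (3.91 against 16.2 CPM). Low values of S100a6, Lgals3 and Clu are absent, and with every 0 set to the smallest value kept their log2 ratios were 1.59, 0.69 and -0.14.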
